A study of Mus musculus with 18 samples.

Results

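The 6 tumors grown from C3H10T1/2 cells that carry the histone mutation H3.3K36M were compared with one another, to see which genes differ and which of them vary together. They are 6 of the 18 RNA sequencing samples of the study. All 6 came from one kind of cell: C3H10T1/2, an embryonic C3H mouse line with several mesenchymal fates open to it, here stably expressing FLAG-HA-tagged H3.3 in which lysine 36 is replaced by methionine. A dose of 2000000 such cells in Matrigel was placed under the skin of both flanks of athymic female SCID mice aged 6 to 8 weeks, and tumors were taken 5 to 6 weeks later. The other samples were cultured cells at passage 10 to 15, of which 6 share the tumors' table: 2 libraries each of cells with tagged wild-type H3.3, H3.3K36M or H3.1K36M. No other treatment distinguishes one tumor from another in the labels, which do not say which tumors shared a mouse, a harvest day or a library batch, nor whether the injected line was a single clone. The tumors therefore form 1 group with nothing to test within it, and what follows describes how far they lie apart, beside 2 measures of error. Injected cells and host are both mouse, so a read cannot be assigned to either. For a gene of one cell type, fewer cells and less RNA per cell cannot be told apart in these bulk samples.

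As background, H3.3 is the histone H3 variant laid down outside DNA replication, and methionine at position 36 inhibits the enzymes that methylate this residue, which changes chromatin marks across the genome. Impaired mesenchymal differentiation and sarcoma are the study's stated subject. A tumor under flank skin grows near keratinised epidermis and hair follicles, fat, a thin sheet of skeletal muscle, dermal mast cells and, in female mice, mammary gland, and it is entered by host vessels, macrophages and natural killer cells.

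Values are normalised estimated counts, and the spread of a gene is the SD over the 6 tumors of log2(value + 1), so that an SD of 1 is a typical distance of 2-fold from the gene's mean. Mesenchymal genes had high values in every tumor: Col1a1, the main collagen of fibroblasts and bone, ran from 65865 to 88626, and Pdgfrb from 11348 to 16682. Cultured H3.3K36M cells had 355824 and 314927 for Col1a1 and 19240.5 and 18670.7 for Pdgfrb. Whether injected or host cells gave the tumor values cannot be told. Genes with a mean of 100 or more over the tumors numbered 11449 of the 20325 in the table (56.3%). Their median SD was 0.20, with 0.08 at the 5th and 0.59 at the 95th percentile. Counting error alone, computed from what 1 estimated read is worth in each library, would give a median SD of 0.04, and 88.1% of genes had an SD more than 2 times their own counting error. Of the 10094 genes that also had a mean of 100 or more in culture, the duplicate cultures of the same table had a median SD of 0.05 against 0.19 among the tumors, and 97.0% of these genes were more spread among tumors. Duplicate cultures measure less than separate animals would, so this is a lower standard of error than biological replicates give.

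Among the 11449 genes 184 (1.61%) had an SD of 1 or more, and these are called spread genes below. The highest counting error among them was 0.41. Car9 (SD 1.003), Nrap (1.004) and Evpl (1.004) lay just inside this threshold and Plxna4 (0.999), Irs2 (0.997) and Igfbp5 (0.987) just outside it. Of the spread genes 80 (43.5%) had a mean under 10 in cultured H3.3K36M cells, a level that held for 554 (4.84%) of all genes with a tumor mean of 100 or more. Put the other way, 14.4% of genes with a mean under 10 in the cultured cells were spread, against 0.955% of the others. Milk, keratin and fast muscle genes filled most of the top of the order: the highest SDs were those of Csn1s2a (5.49), Glycam1 (5.19) and Wap (4.92). Amd1 (4.96), Pira11 (4.18), Gm4535 (3.61) and Rps27 (4.13) also stood there, but each has near-identical copies among which reads can be split, so their values are uncertain. At the other end were housekeeping-type genes at high level. Cops3, a subunit of the COP9 signalosome, read 1883, 1857, 1889, 1875, 1815 and 1873 in tumors 1 to 6, an SD of 0.02, and Ankfy1 (0.02), Smpd4 (0.03), Prcc (0.03) and Cinp (0.03) were close behind among genes with a mean of 1000 or more.

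**Figure D1:**
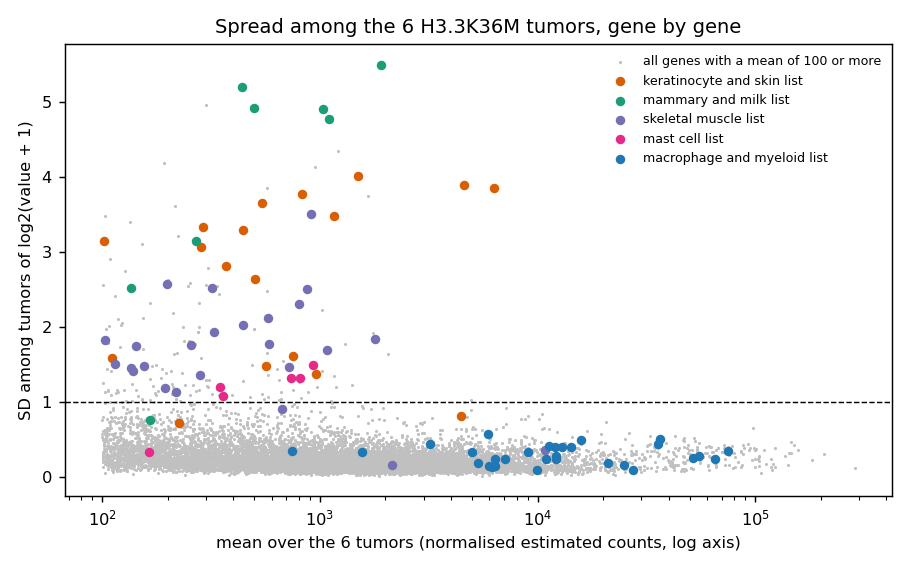
Each point is a gene with a mean of 100 or more, placed by its mean over the 6 tumors (log axis) and by the SD among tumors of log2(value + 1); coloured points are members of 5 gene lists and the dashed line is an SD of 1. Most keratinocyte, milk and skeletal muscle genes lie above the line, up to 5.49, while the 30 macrophage and myeloid genes all lie below it.

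The 6 tumors were not equally far from each other. Tumor 6 stood apart: over all genes with a mean of 100 or more its median absolute log2 difference from another tumor was 0.32 to 0.40, whereas the pairs without tumor 6 differed by 0.10 to 0.20. Counting error would give 0.04 to 0.05. Tumors 2 and 3 had 114 genes (0.996%) that differed by 2-fold or more, and tumors 4 and 6 had 1454 (12.7%). Tumor 6 was the highest of the 6 for 40.3% of genes and the lowest for 34.1%; tumor 4 was the highest for 27.2% and the lowest for 17.5%. Tumors 1, 2, 3 and 5 were the highest for 7.45, 7.4, 6.91 and 10.7% of genes and the lowest for 8.99, 13.7, 12.1 and 13.8%. These shares are the background for the counts below. With TMM scaling in place of the authors' scaling tumor 6 was the highest for 33.6% of genes, and after quantile normalization for 35.5%. In 251 genes tumor 6 was at least 2-fold above every other tumor and in 88 at least 2-fold below; the corresponding counts were 2 and 31 for tumor 4, 9 and 19 for tumor 5, and 11 and 0 for tumor 1. Without tumor 6, 110 of the 184 spread genes still had an SD of 1 or more. Depth ran from 24659432 to 55811835 estimated reads per tumor, and tumor 6, with 29634668, was neither the shallowest nor the deepest.

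**Figure D2:**
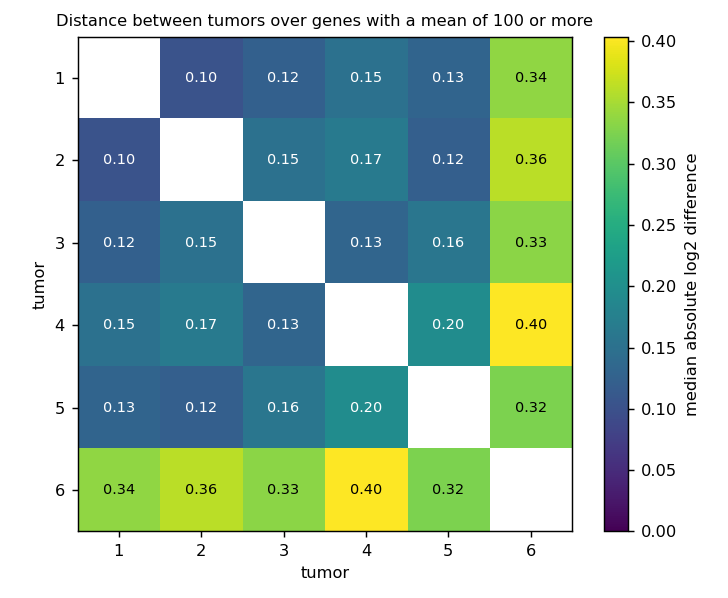
Each cell gives the median absolute log2 difference between 2 tumors (row and column) over the 11449 genes with a mean of 100 or more. All 5 pairs with tumor 6 are at 0.32 or more, and all other pairs are at 0.20 or less.

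Keratinocyte and skin genes differed widely between tumors, with tumors 1 and 5 high and tumors 4 and 6 low. The table holds 23 of its members, of which 18 had a mean of 100 or more and 16 were spread (background 1.61%), with a median SD of 3.104 against 0.20 for all genes. A gene can pass the mean filter through the tumors in which it is high, so counts over passing members describe the list and do not support it; with a median over the tumors of 100 or more in place of the mean, 14 members were spread. Every one of the 18 was highest in tumor 1 (11 genes, background 7.45%) or tumor 5 (7 genes, background 10.7%). Krt14, a keratin of the basal epidermal layer, read 16912, 3804, 4834, 67.4, 11985 and 36.4 in tumors 1 to 6. Its partner Krt5 read 8880, 3090, 5092, 58.7, 10274 and 21.8. Tumors 2 and 3 were intermediate, and the highest Krt14 value was 464-fold above the lowest. Cultured H3.3K36M cells had 25.3 and 23.5 for Krt14.

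Genes of the upper epidermal layers were high and low in the same tumors. Krt1, a keratin of the suprabasal layers, read 2211, 143, 605, 12.1, 2001 and 3.44 in tumors 1 to 6, and Lor, the cornified envelope protein loricrin, read 664, 59.7, 249, 14.2, 747 and 1.15. The lowest values of Lor stand for a few reads or fewer. Krt16, a keratin of hair follicles and of wounded or stressed epidermis, read 6602, 575, 578, 14.6, 2224 and 10.6 and was far higher in tumor 1 than in tumor 5, which Krt5 was not. Krt6a read 4999, 815, 692, 9.86, 2493 and 6.55, but it and Krt6b are near-copies and may share reads. Desmosomal genes took part: Dsp, which links keratin filaments to the desmosome, read 923, 184, 317, 6.07, 765 and 25.2, and the plakophilin Pkp1 read 786, 204, 305, 17.2, 691 and 13.8. Perp, a desmosomal membrane protein that entered the lists as a p53 target, read 1180, 255, 492, 13.3, 1055 and 34.4; it was the only 1 of 22 p53 target and cell cycle inhibitor genes that was spread. Trp63, the transcription factor of stratified epithelium, stayed under a mean of 100 and read 95.9, 29.8, 80.2, 0, 119.8 and 4.59, again lowest in tumors 4 and 6. Summed over the list's genes the level ran from 2682 in tumor 6 to 55997 in tumor 1, against 1796 and 1800 in the 2 cultured H3.3K36M libraries. A separate list of 10 stratified epithelium keratins, written after the values were seen, had all 10 members spread.

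Mast cell genes had the same tumors high and low. Of the 6 genes with a mean of 100 or more 5 were spread, with a median SD of 1.26; without tumor 6 there were 2. Mcpt4, a chymase of connective tissue mast cells, read 1828, 605, 985, 351, 1685 and 121 in tumors 1 to 6, and both cultured H3.3K36M libraries were at 0. Cma1, another mast cell chymase, read 1361, 495, 711, 247, 1442 and 148, and Cpa3, the mast cell carboxypeptidase, read 561, 237, 319.6, 146, 772 and 110.1. Tumors 1 and 5 were highest and tumors 4 and 6 lowest in all 3, but the range was far narrower than for keratins, 15.1-fold for Mcpt4. Kit, the stem cell factor receptor, which other cells also express, was not spread, at 184, 116, 152, 133, 172 and 222. When spread genes were joined by the likeness of their profiles over the tumors (average linkage on 1 minus Pearson's r, joined up to 0.3), 1 group of 45 genes held 15 members of the keratinocyte list and 4 of the mast cell list; 27 of its genes were highest in tumor 1 and 18 in tumor 5. Its members with the highest means were Krt14, Krt5, Krt16, Krt6a, Krt6b and Krt17. Whether skin taken along with tumors has a part in these values was not tested.

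Milk protein genes had the highest SDs of any list. Of 13 listed genes 8 had a mean of 100 or more, 7 were spread, the median SD was 4.84, and all 8 were highest in tumor 5 (background 10.7%). Csn2, the milk protein beta-casein, read 7.38, 0, 106, 3.04, 4382 and 1669 in tumors 1 to 6. Csn1s1, an alpha-casein, read 7.38, 0.904, 375, 3.04, 5004 and 1186, and Csn1s2a, another, read 2.68, 0, 174, 2.02, 9274 and 2046. Tumor 5 was highest, tumor 6 came next, tumor 3 held a low but clear level, and tumors 1, 2 and 4 were at or near 0. The 3 estimated reads taken as a floor correspond to values of 2.01 to 4.33 in a library, so against the floor of tumor 2 tumor 5 was at least 1616-fold higher for Csn2. Wap, whey acidic protein, read 0, 0, 0, 1.01, 2829 and 161, and Glycam1, a mucin-type milk glycoprotein, read 0, 0, 0, 1.01, 1780 and 837; in these tumor 3 was at 0. Csn3, kappa-casein, read 8.72, 5.42, 42.2, 8.1, 1218 and 341. Lalba, the lactose synthase subunit alpha-lactalbumin, read 26.1, 15.4, 10.9, 4.05, 662 and 96.3, above the floor in all 6. Both cultured H3.3K36M libraries were at 0 for Csn2, Csn1s1, Csn1s2a, Wap and Glycam1.

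Other epithelial genes of the gland varied less or stayed low. Krt8, a keratin of simple and luminal epithelium, read 215, 92.2, 126, 73.9, 277 and 213, an SD of 0.76, and its partner Krt18 read 36.2, 4.52, 73.4, 4.05, 165 and 172, with tumors 3, 5 and 6 above the rest. Elf5, a transcription factor of the secretory mammary epithelium, had a mean under 100 and read 2.68, 0.904, 42.2, 2.02, 129.9 and 40.1, again highest in tumor 5. The milk genes pass the mean filter through tumors 5 and 6: with a median of 100 or more only 1 member was left as spread. Leaving out tumor 5, 4 were spread. The profile-based grouping put 8 genes in 1 group, the 7 spread list members and Expi (12.1, 14.5, 273, 9.11, 803 and 87.2). How much mammary gland lay in each tumor sample was not tested.

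The stretches before the start of these genes are shown because the milk genes vary together and are textbook targets of the prolactin-activated factor STAT5. A motif search used TTCNNNGAA, the core of the STAT5 site, which reads the same on both strands, in the 250 bases before each RefSeq gene start. It was found in 3 of the 7 milk list genes that have an entry, against 1940 of 27025 genes overall (7.18%). In the sequences below, from RefSeq on GRCm38.p6 and written 5′ to 3′ in the direction of the gene, capitals mark the motif. The Csn2 stretch is chr5:87699426-87699675 on the minus strand, with the motif starting 93 bases before the gene; that of Csn1s1 is chr5:87665958-87666207 on the plus strand, at 100 bases; that of Glycam1 is chr15:103565082-103565331 on the minus strand, at 145 bases.
Csn2: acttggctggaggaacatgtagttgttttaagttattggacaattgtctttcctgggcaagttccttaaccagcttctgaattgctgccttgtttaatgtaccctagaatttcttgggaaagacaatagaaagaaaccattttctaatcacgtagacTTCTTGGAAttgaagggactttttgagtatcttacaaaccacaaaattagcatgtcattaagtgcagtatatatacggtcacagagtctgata
Csn1s1: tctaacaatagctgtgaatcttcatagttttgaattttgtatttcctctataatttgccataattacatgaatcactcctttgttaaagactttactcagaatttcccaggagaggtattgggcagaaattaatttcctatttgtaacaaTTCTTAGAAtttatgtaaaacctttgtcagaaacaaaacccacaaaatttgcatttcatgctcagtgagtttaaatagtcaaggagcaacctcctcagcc
Glycam1: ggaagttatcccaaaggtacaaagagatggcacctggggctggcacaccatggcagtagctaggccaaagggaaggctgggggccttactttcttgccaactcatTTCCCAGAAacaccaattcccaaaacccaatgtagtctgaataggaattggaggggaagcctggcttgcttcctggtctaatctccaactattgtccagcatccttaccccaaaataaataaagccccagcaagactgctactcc
A match is a stretch of letters and not a measured binding site. Csn1s2a, Wap, Lalba and Krt8 held no such letters in this window, although Csn1s2a and Wap had the same tumors, 5 and 6, above the rest.

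Skeletal muscle genes were highest in tumor 6. Of 41 listed genes 25 had a mean of 100 or more, 22 of them were spread, the median SD was 1.75, and 23 were highest in tumor 6 (background 40.3%). The mean level of the 25, as a log2 distance from each gene's own mean, was 2.76 in tumor 6 and 1.19 in tumor 5, and lay between -1.28 and -0.52 in the other 4. Myh4, the myosin heavy chain of the fastest (IIb) fibres, read 24.4, 59.7, 13.6, 15.2, 1416 and 3934 in tumors 1 to 6. Ckm, muscle creatine kinase, read 94.5, 99.5, 70.7, 58.7, 1210 and 3705, and Pvalb, the calcium buffer parvalbumin of fast fibres, read 36.2, 27.1, 21.8, 28.3, 450.3 and 1350. Atp2a1, the calcium pump of the fast sarcoplasmic reticulum, read 101, 130.2, 99.3, 57.7, 859 and 3568. Acta1, skeletal alpha-actin, read 329.9, 620.2, 329, 335, 2360 and 6745. In each of these 5 genes tumor 6 was highest and tumor 5 next, but the 5 were named for a high SD or mean and do not stand for the list.

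Myosins of other fibres were less uneven. Myh1 (IIx fibres) read 335, 463, 155, 187, 490.1 and 2690 and Myh2 (IIa fibres) read 47.2, 59, 25.4, 68.2, 152 and 461, and in Myh1 tumor 5 was close to tumor 2. Myh7, the slow and cardiac myosin, stayed under a mean of 100 and read 14.9, 6.34, 3.62, 8.78, 4.33 and 216, so that tumor 6 alone was above 14.9. The titin gene Ttn read 47.6, 76.8, 54.4, 56.7, 238 and 1067. Among genes of muscle precursors Myog, the differentiation factor myogenin, did not share this order, at 6.7, 26.2, 27.2, 20.2, 4.33 and 0, with 0 in tumor 6. Myod1 read 0.67, 2.71, 2.72, 1.01, 1.44 and 3.44. These are 3 estimated reads or fewer in each tumor, too few to give an order. The satellite cell gene Pax7 was listed at 0 in all 6 tumors. Tpm3 (9684, 11217, 8653, 7804, 11220 and 16107) and Eno3 (1943, 2045, 2047, 2038, 2687 and 2156), also members of the list, were not spread. With a median of 100 or more 9 members were spread, and without tumor 6 there were 11. How much of the body wall or skin muscle lay in each sample was not tested.

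**Figure D3:**
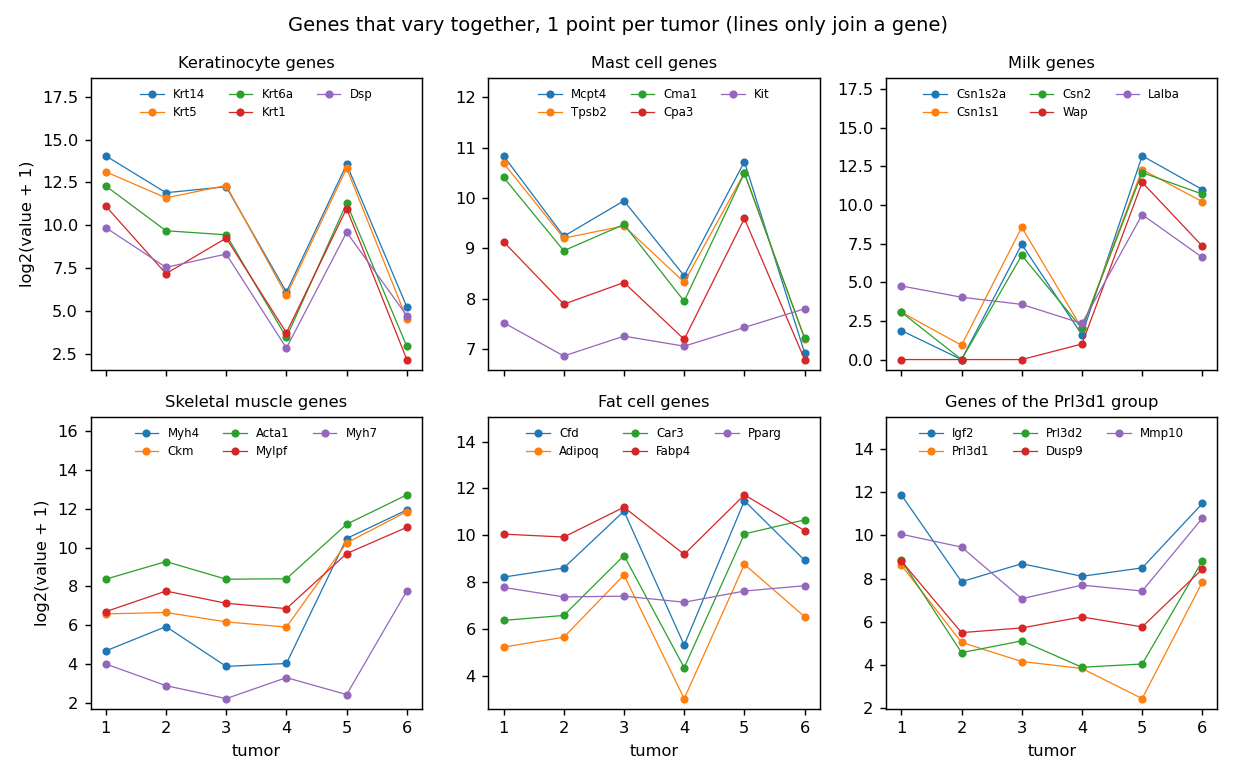
Each panel plots log2(value + 1) of 5 genes in the 6 tumors, 1 point per tumor; the lines only connect points of a gene. Keratinocyte genes are high in tumors 1 and 5, and so are mast cell genes except Kit, which is nearly even and highest in tumor 6. Milk genes are high in tumors 5 and 6, and so are muscle genes except Myh7, which is high in tumor 6 only. The Prl3d1 group is high in tumors 1 and 6. The fat cell genes drawn are lowest in tumor 4, Pparg only by a small margin.

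Mature fat cell genes had their own order, with most of them lowest in tumor 4. Of the 15 listed genes with a mean of 100 or more, 10 were lowest there (background 17.5%). A further 4 were lowest in tumor 6 (background 34.1%). In the other direction 3 of the 15 were highest in tumor 4 (background 27.2%). Adipoq, the fat cell hormone adiponectin, read 36.2, 48.8, 314, 7.08, 430.1 and 90.6 in tumors 1 to 6, and Cfd, the adipokine adipsin, read 295, 387, 2088, 38.5, 2840 and 486. Car3, a carbonic anhydrase of fat and slow muscle, read 81.1, 94, 560.3, 19.2, 1064 and 1613. Tumors 3 and 5 were high and tumor 4 low in all 3, while tumor 6 was the highest only for Car3. Fabp4, the fatty acid carrier of fat cells and of some macrophages and vessels, read 1057, 969.7, 2348, 580.0, 3384 and 1171, and Lpl, lipoprotein lipase, read 289.8, 426, 954, 376, 1228 and 538; both were highest in tumor 5 with narrower ranges. Plin1, the fat droplet coat protein, stayed under a mean of 100 at 7.38, 5.42, 57.1, 0, 66.4 and 24.1. Only 3 of the 15 list members with a mean of 100 or more were spread (median SD 0.40), and the master regulator Pparg was not spread, at 217, 164, 167, 139.6, 195 and 228. By profile Cfd, Adipoq and Car3 fell in a group of 10 genes with Hp, Cd209f, Mup10 and Sfrp1. Hp, haptoglobin, read 291, 341, 1012, 49.6, 1218 and 519.5, and Sfrp1, a secreted Wnt antagonist, read 149, 100.4, 209, 26.3, 264 and 424.

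Growth factor and placental-type genes marked tumors 1 and 6. Igf2, the fetal growth factor, read 3732, 231, 411, 274, 359 and 2834 in tumors 1 to 6, so that tumors 1 and 6 did not overlap with the other 4, and the highest value was 16.2-fold above the lowest. Cultured H3.3K36M cells had 424 and 413, just above the highest of those 4. Igf2 was the only 1 of 10 imprinted genes with a mean of 100 or more that was spread. Dusp9, a MAP kinase phosphatase, read 448, 44.3, 51.7, 73.9, 53.4 and 346, and Mmp10, the protease stromelysin-2, read 1058, 699.9, 133, 206, 171 and 1773. The placental lactogen genes Prl3d1, Prl3d2 and Prl3d3 are near-copies whose reads can be split, and are best read together: Prl3d1 read 392, 32.1, 17, 13.4, 4.47 and 228, Prl3d2 457, 22.9, 33.7, 14, 15.6 and 451 and Prl3d3 179.7, 61.6, 11.9, 11.1, 23.3 and 420.3. These genes formed a group of 10 by profile, of which 5 were highest in tumor 1 and 5 in tumor 6. A trophoblast list written after the values were seen had 12 of 37 members with a mean of 100 or more and 8 of them spread. Without tumor 6 only 2 were spread, and with a median of 100 or more also 2. The placental genes Tpbpa, Prl3b1 and Ctsq were listed at 0 in all 6 tumors. A pair of other trophoblast-associated genes were highest in tumor 6: Plac1 read 63.7, 36.2, 19, 28.3, 28.9 and 546 and the transcription factor Tcfap2c read 1246, 572, 292, 235, 489 and 3279.

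The largest group by profile held 69 genes, all highest in tumor 6, and only 21 of them were on the skeletal muscle list. Its members with the highest means included Mmp9, a gelatinase of neutrophils, macrophages and osteoclasts, which read 976, 509.9, 228, 324, 290.1 and 8234 in tumors 1 to 6. Nptxr, the neuronal pentraxin receptor, read 935, 1265, 368, 516, 968 and 4328. Col8a1, a short-chain collagen of vessel walls, read 567, 411, 505, 353, 614 and 4504. Il1rl1, the receptor of interleukin-33, read 597, 486, 414, 417, 382 and 2612, while Il33 itself was lowest in tumor 6 at 12746, 13997, 14320, 18050, 8722 and 5763. Gpr126, an adhesion receptor, was flat in 5 tumors and high in the sixth, at 167, 165, 173, 159, 169 and 1084. Wnt5a, a Wnt ligand, read 304, 191, 156, 124, 154 and 1127, and 11 of the 16 Wnt pathway genes with a mean of 100 or more were highest in tumor 6, against a background of 40.3%; the count was 11 also with TMM scaling and quantile normalization. Of 49 extracellular matrix genes 27 were highest there and 4 were spread, Col8a1, Fbln1, Ogn and Mfap5. The abundant matrix genes ranged less: Col1a1, the main fibrillar collagen, read 67626, 65865, 69156, 76163, 88626 and 67698, and Fn1, fibronectin, read 73182, 90497, 93031, 119552, 61844 and 76312.

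Most natural killer cell genes were highest in tumor 6, and vessel genes were divided. Of 23 endothelial genes 10 were highest in tumor 5 (background 10.7%), 6 were highest in tumor 6 (background 40.3%) and 6 were lowest there (background 34.1%). The vessel genes given here are among the 6 that were highest in tumor 6. Cdh5, the endothelial cadherin, read 10731, 8941, 6722, 5020, 6371 and 22894 in tumors 1 to 6, and Kdr, a VEGF receptor, read 468, 431, 381, 214, 589 and 879. Pecam1, a further endothelial marker, read 2642, 2407, 1878, 1867, 2845 and 3100, so tumor 6 was only just above tumor 5. Apln, the vessel growth factor apelin, read 982, 1084, 911, 1463, 799.6 and 3712. None of the 23 was spread (median SD 0.33), and their mean log2 distance was 0.07 in tumor 6 and 0.16 in tumor 5. Gzmb, the granzyme of cytotoxic cells, read 1468, 1398, 957, 1122, 1165 and 3827, and Prf1, perforin, read 1190, 1044, 565, 906, 856 and 2984. Ncr1, a receptor that defines natural killer cells, read 256, 344, 254, 187, 344 and 545, highest in tumor 6 as were 9 of 13 members of the natural killer and lymphocyte list (background 40.3%). Cd79a, a B cell receptor subunit, was the only spread member, at 279.6, 43.4, 16.3, 25.3, 46.2 and 863. Its partner Cd79b was lowest in tumor 6, at 474, 425, 275, 426, 430.1 and 251. Among T cell genes Cd3e never exceeded 0.67 and Cd8a had a mean of 10.3 over the tumors. Others were higher, with means of 79.2 for Cd3d, 256 for Cd3g and 807 for Cd4, so Cd3e does not stand for them.

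Tumor 6 was the lowest for 50 of the 184 spread genes (27.2%, against 34.1% of all genes). The keratin and mast cell group above was low there and in tumor 4. Another group by profile, of 14 spread genes, was low in tumor 6 but not in tumor 4, with mean log2 distances of -2.19 and 0.58. Among them were Msln, the surface protein mesothelin, at 1305, 1192, 1486, 1179, 1329 and 234 in tumors 1 to 6, and Cst6, the protease inhibitor cystatin E/M, at 5130, 4867, 5799, 7646, 5160 and 1021. Anxa8, an annexin, read 992, 672, 955, 532, 1234 and 133. Phospho1, a phosphatase of mineralising matrix, read 906, 1178, 1285, 2750, 757 and 219. Tnnt2, the cardiac and embryonic troponin T, read 764, 853, 1034, 871, 319 and 138 and so ran against the other muscle genes. Among bone and mineralisation genes Phospho1 was the only one of 14 that was spread.

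Interferon-stimulated genes differed together by small amounts, with tumor 4 lowest. All 40 listed genes had a mean of 100 or more; 39 were lowest in tumor 4 (background 17.5%) and 31 highest in tumor 6 (background 40.3%). With TMM scaling these counts were 39 and 29, and after quantile normalization 40 and 32. None was spread and the median SD was 0.31. Ifit1, which binds foreign RNA, read 2427, 2483, 1975, 1534, 2494 and 4156 in tumors 1 to 6, and Ifih1, the viral RNA sensor MDA5, read 964, 931, 840.5, 595, 1055 and 1658. Gbp3, a guanylate-binding protein, read 1259, 1303, 1018, 791, 1246 and 2166, and Trim30a read 1516, 1625, 1374, 1149, 1879 and 3661. In all 4 genes tumor 4 was lowest and tumor 6 highest, and the other 4 tumors lay close together. Bst2, the virus tether tetherin, which had one of the highest levels of the list, was nearly even at 22866, 26100, 21222, 20442, 24379 and 22011. Antigen presentation genes were more even: H2-D1, a class I molecule, read 122018, 126980, 109960, 124064, 124412 and 108038, and the median SD of the 15 genes was 0.15.

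The stretches before 3 interferon-stimulated genes are shown since these genes share the order of tumors. The core of the interferon-stimulated response element, GAAA, any 2 bases and GAAA again, was searched on both strands. Capitals show it, or its reverse complement (TTTC, any 2 bases, TTTC), and matches can overlap. They occur in the 250 bases before the start of 15 of the 27 listed genes with a RefSeq entry, against 821 of 27025 genes (3.04%). The 3 shown are those with the highest SD among the 15, on GRCm38.p6: Trim30a at chr7:104465194-104465443 on the minus strand, Gbp3 at chr3:142559794-142560043 on the plus strand and Ifit1 at chr19:34640639-34640888 on the plus strand.
Trim30a: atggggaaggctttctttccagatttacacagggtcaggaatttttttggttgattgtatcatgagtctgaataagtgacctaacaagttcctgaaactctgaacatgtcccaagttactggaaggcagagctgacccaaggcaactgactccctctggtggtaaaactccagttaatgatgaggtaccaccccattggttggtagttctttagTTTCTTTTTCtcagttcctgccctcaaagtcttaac
Gbp3: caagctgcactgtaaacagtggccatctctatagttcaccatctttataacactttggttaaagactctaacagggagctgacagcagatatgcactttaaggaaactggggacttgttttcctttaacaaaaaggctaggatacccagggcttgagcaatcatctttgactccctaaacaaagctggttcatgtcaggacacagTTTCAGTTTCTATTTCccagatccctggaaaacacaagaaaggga
Ifit1: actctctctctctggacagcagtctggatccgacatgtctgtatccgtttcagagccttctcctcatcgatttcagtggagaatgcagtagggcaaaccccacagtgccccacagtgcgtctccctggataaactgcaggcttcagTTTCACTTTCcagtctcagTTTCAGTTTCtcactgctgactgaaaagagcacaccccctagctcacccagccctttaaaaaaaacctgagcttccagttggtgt
The first match begins 36 bases before the gene start in Trim30a, 45 in Gbp3 and 104 in Ifit1. Ifih1, whose values had the same order of tumors, holds no such letters in its window.

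Cell cycle genes were also lowest in tumor 4. Of 58 listed genes 48 were lowest there (background 17.5%), 50 with TMM scaling and 51 after quantile normalization, and none was highest there; 38 were highest in tumor 6 (background 40.3%). None was spread and the median SD was 0.30. Mki67, the proliferation marker Ki-67, read 5591, 4504, 5189, 3444, 6110 and 8103 in tumors 1 to 6, a range of 2.35-fold. Top2a, the topoisomerase of dividing cells, read 7982, 7089, 6815, 4742, 7793 and 10573, and Rrm2, a subunit of ribonucleotide reductase, read 1043, 917, 764, 495, 1134 and 1827. Ccne2, a cyclin of S-phase entry, read 108, 59.5, 78.7, 69.1, 105 and 234. Ccnd1, cyclin D1, a growth factor target, was nearly even at 31132, 33776, 30679, 29252, 29196 and 36524. Tumor 4 was the highest for all 4 red cell genes with a mean of 100 or more (background 27.2%): Hba-a1, an alpha-globin, read 7430, 6211, 11661, 14809, 7396 and 5797, and Hbb-b1, a beta-globin, read 1054, 951, 1557, 2436, 1382 and 1357. Hba-a1 and Hba-a2 are near-copies, and blood left in a tumor was not measured otherwise.

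Hypoxia and glycolysis genes were lowest in tumor 5. Of 35 listed genes 32 were lowest there (background 13.8%), and the same count was 32 with TMM scaling and 32 after quantile normalization. The list's mean log2 distance was -0.73 in tumor 5 and 0.01 to 0.26 in the others. Car9, a carbonic anhydrase that is a classic target of the hypoxia factor HIF-1, read 3852, 3925, 4479, 4726, 1100 and 9342 in tumors 1 to 6, and Slc2a1, the glucose transporter GLUT1, read 12136, 11501, 12487, 14535, 4344 and 12842. Adm, the vasodilator adrenomedullin, read 625, 529.8, 736, 718, 205 and 1178, and Ero1l, an oxidase of protein folding, read 5592, 5310, 6336, 7423, 2182 and 15929. P4ha2, a collagen prolyl hydroxylase, read 1566, 1972, 2400, 3170, 683 and 2000. Vegfa, the vessel growth factor, read 7498, 5990, 7288, 7378, 3760 and 6166, also lowest in tumor 5. All 6 of these genes had their lowest value in tumor 5. Pgk1, a glycolytic enzyme often used as a reference gene, read 26935, 27902, 28351, 29103, 14965 and 35602, and Gapdh read 163437, 160919, 164820, 208109, 91819 and 113664. Pkm2, pyruvate kinase, was one of the exceptions, lowest in tumor 6 at 184039, 179233, 163065, 194002, 115049 and 110728. Which tumor was highest depended on the scaling: by the mean of the list tumor 6 was, and with TMM scaling tumor 4.

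Ribosomal protein genes ran from high in tumor 4 to low in tumor 6. Of 45 genes 43 were lowest in tumor 6 (background 34.1%), 44 with TMM scaling and 35 after quantile normalization. In tumor 4 44 were highest (background 27.2%), 43 with TMM scaling, but 14 after quantile normalization, so this direction depends on the scaling. Rpl35, a protein of the large subunit, read 54427, 49956, 61833, 72654, 48131 and 25538 in tumors 1 to 6, and Rpl38 read 48265, 44384, 57421, 64488, 41832 and 24671. Rplp0, an acidic stalk protein often used as a reference, read 130104, 131414, 120454, 129454, 118737 and 95869. Oxidative phosphorylation genes shared the low end: 29 of 37 were lowest in tumor 6, 31 with TMM scaling and 28 after quantile normalization. Ndufa1, a small subunit of complex I, read 2890, 2507, 2913, 3227, 2637 and 1320, and Uqcrq, a small subunit of complex III, read 5408, 5122, 5438, 6063, 4978 and 2533, whereas Atp5b, the catalytic ATP synthase subunit, had 52388, 54829, 44362, 46305, 50954 and 54096. None of the 37 was spread (median SD 0.20).

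The length of a gene's transcripts moved with the values of tumor 6. Lengths from the GENCODE M21 annotation were found for 10380 genes (90.7%), which were cut into 5 bins of about equal size. A gene's length here is the median over all its annotated transcripts, so it can differ from that of its main mRNA. Genes that share a bin therefore need not have mRNAs of like length. The median log2 distance of tumor 6 from the 6-tumor mean was -0.08 in the bin of the shortest transcripts (median 649 bases) and 0.22 in that of the longest (median 3531 bases). In tumor 4 the same values were 0.07 and -0.05, and in the other 4 tumors all bins lay between -0.05 and 0.02. Within the bin of shortest transcripts the ribosomal protein genes were at -0.65 in tumor 6 and the other genes at -0.07. In the same bin the cell cycle genes were at 0.32 in tumor 6 and the others at -0.09. Oxidative phosphorylation genes were at -0.48 in tumor 6 in that bin, against -0.08 for the others, and in the next bin at -0.04, against -0.09. The part of transcript length or RNA quality in the distance of tumor 6 was not tested.

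**Figure D4:**
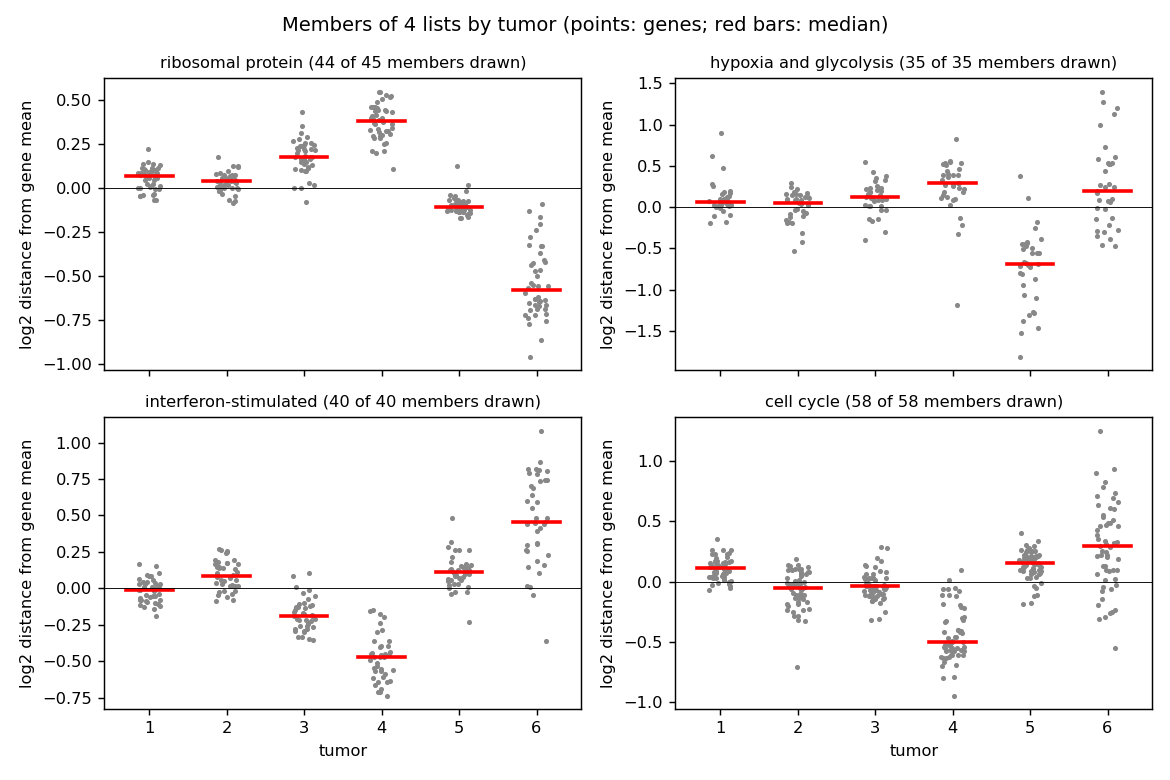
Each point is a member of a gene list, placed by tumor and by its log2 distance from its own mean over the 6 tumors; red bars are medians, each panel has its own scale, and 1 ribosomal protein gene (Rps27, uncertain counts) is left out because it passes 2 on this axis. Ribosomal protein genes are lowest in tumor 6, hypoxia and glycolysis genes in tumor 5, and interferon-stimulated and cell cycle genes in tumor 4.

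Macrophage and myeloid genes were at a high level in every tumor. None of 30 was spread, against 1.61% of all genes, and their median SD of 0.28 was above the 0.20 of all genes. Of the 30 genes 14 were highest in tumor 4 (background 27.2%) and 13 lowest in tumor 6 (background 34.1%). With TMM scaling these counts were 14 and 17. After quantile normalization they were 7 (23.3%, all genes 23.4%) and 12 (40%, all genes 38.3%), so both depend on the scaling. Csf1r, the receptor of the macrophage growth factor, read 19684, 24232, 17798, 20618, 24779 and 18904 in tumors 1 to 6, and C1qa, a complement subunit made by macrophages, read 77222, 83439, 70936, 94129, 76710 and 46784. Lyz2 read 48242, 68469, 61663, 80750, 67998 and 64746. Trem2, a lipid receptor of tissue macrophages, had the highest SD of the list and read 5334, 6217, 6430, 8762, 6260 and 2645, and Cd68 read 10719, 11956, 11504, 16416, 10359 and 6750; both were lowest in tumor 6, while Ptprc, the common leukocyte antigen, was highest there at 2842, 2712, 2708, 2418, 2966 and 5592. Pericyte and smooth muscle genes had no spread member among 15 and a median SD of 0.36, also above that of all genes: Acta2, smooth muscle actin, read 665, 796, 1036, 712, 1181 and 1066, and Pdgfrb, a receptor of pericytes and of the injected cells alike, read 15617, 14708, 13778, 14626, 16682 and 11348.

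At a mean of 100 or more, Polycomb, Hox and housekeeping genes had median SDs below the 0.20 of all genes. H3K36 enzyme and H3.3 genes were close to it. The H3.3 genes read 13687, 12346, 14157, 14493, 14443 and 13663 (H3f3a) and 48388, 42024, 48579, 49923, 43355 and 43932 (H3f3b), and these columns do not tell the transgene from the endogenous genes. None of 17 H3K36 enzyme and H3.3 genes was spread (median SD 0.21), and 12 of them were highest in tumor 6 (background 40.3%). Kdm4c, a demethylase of H3K9 and H3K36, had the highest SD at 0.50, with 291, 255, 254, 237, 309 and 608. Of 21 Polycomb genes none was spread (median SD 0.17), and Ezh2, the H3K27 methyltransferase, read 1075, 1040, 804, 668, 984 and 2071. Only 5 of 39 Hox genes had a mean of 100 or more, with a median SD of 0.17. This value depends on the filter: it was 0.52 at a mean of 10 or more and 0.54 without a filter. The 15 housekeeping genes had a median SD of 0.16.

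Several defining markers of cartilage and bone, fates open to the injected line, stayed low, while other genes of both lists varied. The median SD was 0.46 over 11 cartilage genes and 0.24 over 14 bone and mineralisation genes with a mean of 100 or more, against 0.20 over all genes. Phospho1, given above, was the only spread bone gene. Col2a1, the cartilage collagen, read 225, 284, 216, 174, 127 and 129.6, and Acan, the cartilage proteoglycan, never exceeded 5.36. Bglap, the bone protein osteocalcin, reached 53.9 in tumor 6, and Ibsp and Sp7 never exceeded 4.08 and 7.23. Prg4, the lubricating proteoglycan of joint surfaces, was the only 1 of 11 cartilage genes with a mean of 100 or more that was spread, at 45.1, 58.6, 376, 48.1, 80.6 and 209, highest in tumor 3. Its group by profile also held Dpt (120.0, 309, 1159, 177, 772 and 939), Gpc3 and Mfap5, and tumor 3 was the highest for all 4. Sox10, a marker of Schwann cells, stayed at or below 56.3. The Y-linked gene Ddx3y never exceeded 4.03 and Kdm5d was listed at 0 in all 6.

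**Figure D5:**
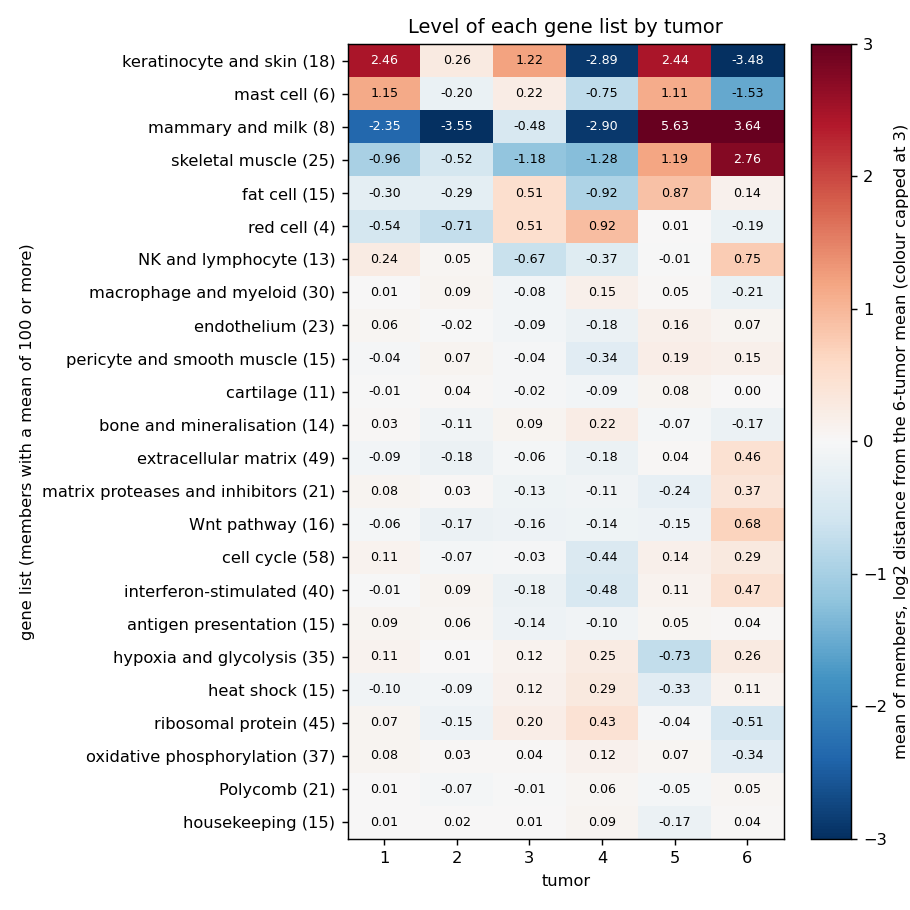
Each cell gives the mean over a list's members (number with a mean of 100 or more in brackets) of the log2 distance from the gene's 6-tumor mean, for each tumor; colours are capped at 3. Keratinocyte, milk, muscle and mast cell lists range over more than 2 log2 units, most others over less than 1; the ribosomal value of tumor 2 includes Rps27, at 0 there.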

How the data were processed

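RNA was extracted with Trizol and made into Illumina TruSeq libraries, per the labels' protocols. The submitters' processing notes name Bowtie 1.0.0, RSEM 1.2.12 and the mm9 build. The authors deposited a table of 12 libraries that holds a signal, which is estimated counts scaled library by library (median normalisation, as the deposited file is named). Steps in the low values gave what 1 read is worth, and so depth, but under 50% of tumor values were whole reads (tolerance 0.01), so no count model was used. The signal was taken as log2(value + 1). No groups were tested against each other, since the tumors form 1 group; Dixon's ratio, an outlier test, served only to pick out a tumor far from the others.

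Python 3.11.15 was used with scipy 1.17.1, numpy 2.4.6, matplotlib 3.10.9 and pandas 2.3.3, and the SD and scaling steps were tested on simulated data. Members and the 40 gene lists were chosen with earlier results of these data known; lists of trophoblast genes and of stratified epithelium keratins were added after the values were seen. Genes are named by rule: the 25 highest SDs, per list the 5 highest SDs and 2 highest means, the 6 highest means of profile groups of 15 or more genes, the 5 lowest SDs, genes at the threshold, 10 per tumor farthest from the next tumor, and fixed markers. A few genes that these rules name are not reported here. Other names, chosen after their values were seen, illustrate a list. The alternatives tried were other pseudocounts, filters, scalings, linkages, leaving out each tumor and the median absolute deviation. RefSeq (GRCm38.p6) and GENCODE M21 served only for promoters and lengths, since their build is not mm9. Xist and other non-coding genes were not analysed here.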

Additional observations from a re-analysis of the deposited data

Results flagged for a closer look

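For these results 1 of the 6 tumors lay far from the other 5: the gap to its nearest neighbour, divided by the range of all 6 log2 values, was above 0.625 (Dixon's ratio). Chance alone would do this for about 1 gene in 20 among independent samples, and 18.6% of the 11449 genes did so. Among gene list levels the ratio was 0.87 for Wnt pathway, 0.80 for oxidative phosphorylation, 0.71 for H3K36 enzymes and H3.3 and 0.66 for extracellular matrix genes, all with tumor 6 apart, and 0.74 for hypoxia and glycolysis genes and 0.67 for housekeeping genes, both with tumor 5 lowest. Tumor 6 was the one above the rest for Gpr126 (0.96), Col8a1 (0.78), Il1rl1 (0.77), Ptprc (0.76), Kdm4c (0.72), Gzmb (0.69) and Plac1 (0.65). It was the one below the rest for Msln (0.87), Cst6 (0.78), Uqcrq (0.77), Ndufa1 (0.72) and Rplp0 (0.68). Tumor 5 was below the rest for Slc2a1 (0.81), Pgk1 (0.68) and Vegfa (0.67) and above it for Eno3 (0.68). Tumor 2 was below the rest for Rps27 (0.83), whose reads can be split with near-copies, and for H3f3a (0.63). Irs2 had a ratio of 0.64.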

How the results depend on the processing

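The number of spread genes depends on the filter and the measure: 184 became 57 at a mean of 500 or more, 696 at 10 or more, 1377 without a filter, 117 by the median absolute deviation, and 112 to 226 when 1 tumor was left out, the lowest without tumor 6. Spread list members, 70 in all, became 34, 121 and 148 under the same 3 filters, 45 with a median over the tumors of 100 or more (added after seeing the data), and 51 to 79 when 1 tumor was left out. Groups of 15 or more genes held 114 genes, and 174 when joined up to 0.5. The other alternatives stayed within 1.5 times of these values. Leaving out a tumor was not run for the tumor in which a list is highest or for the groups. No paired analysis was possible because the tumors form a single group. A value near 2.01 to 4.33 rests on 3 estimated reads and is imprecise at this depth.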
